A study of Mus musculus with 5 samples.

Results

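The forkhead transcription factors examined here are 6 genes, Foxa1, Foxa2, Foxc2, Foxd3, Foxe1 and Foxf1. Their members in the data are all CpG positions that the authors' tables assign to these genes as the nearest start site, 32 positions on 30 CpGs among 4688 listed positions of 2797 genes. All 6 genes had at least 1 position, and all 32 positions stood in the table of 2618 positions with higher methylation in G5, with 0 in the table of 2070 lower positions. The genes were chosen with these listings known, so the shared direction is a description and carries no test.

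Forkhead proteins bind DNA through a winged-helix domain, and several of them open compact chromatin for other factors while tissues form in the embryo. The 6 genes act mainly in endoderm, mesenchyme, neural crest and thyroid, and none of them is known chiefly for a role in myeloid cells. CpG islands at the starts of such developmental genes usually carry little methylation in tissues where the genes are silent.

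DNA methylation was measured by reduced representation bisulfite sequencing, which reads cytosines near restriction sites, in common myeloid progenitors (CMP) sorted by flow cytometry from mouse bone marrow. CMP are early blood-forming cells of the marrow that feed the myeloid lineages. The G0 group held 3 pools of mice of genotype G0 TERTER/+, called normal in the labels. The G5 group held 2 pools of mice of genotype G5 TERTER/ER, labelled as mice with short telomeres. All 5 pools share a background labelled mainly C576BL/6, and all carry the TERT-ER allele, in which telomerase is fused to the hormone-binding part of the oestrogen receptor, so the G0 mice are not free of it. A pool mixes DNA of several mice and gave 14000 to 30000 cells, so differences between single mice cannot be seen, and neither the ages nor the numbers of mice are stated in the labels. The tables hold methylation alone, so the sorted cells were not checked against marker genes. Per the series' design text, reads aligned at about 63%, but how many reads support any given percent is unknown.

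At the 32 forkhead positions as a set, the mean methylation was 17.8%, 20.4% and 18.7% in G0 pools 1, 2 and 3, and 35.3% and 39.7% in G5 pools 1 and 2. The group means were 19.0% ± 1.32 (SD, n = 3) and 37.5% ± 3.13 (SD, n = 2), a difference of 18.5 points. At single positions the difference ran from 9.91 to 30.3 points. Levels of both G5 pools lay above all 3 G0 pools at 28 of the 32 positions (87.5%), against 86.9% of all listed higher positions. In limma's moderated test, fitted and adjusted (Benjamini-Hochberg) over all 4688 listed positions, 11 forkhead positions passed an adjusted p of 0.05 (34.4%), against 33.2% of all listed higher positions, and 25 had an unadjusted p under 0.05 (78.1%) against 68.7%. The first 2 shares were near the background, and all of these positions had been listed for a difference in these same pools, so no share is read as a result. Without any single G0 pool, limma called 0 of the 32 positions, with 10 to 15 at an unadjusted p under 0.05. Permuting the labels of 3 and 2 pools gives 10 splits and no p below 0.1, so no single position or gene mean can pass an exact test.

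**Figure D1:**
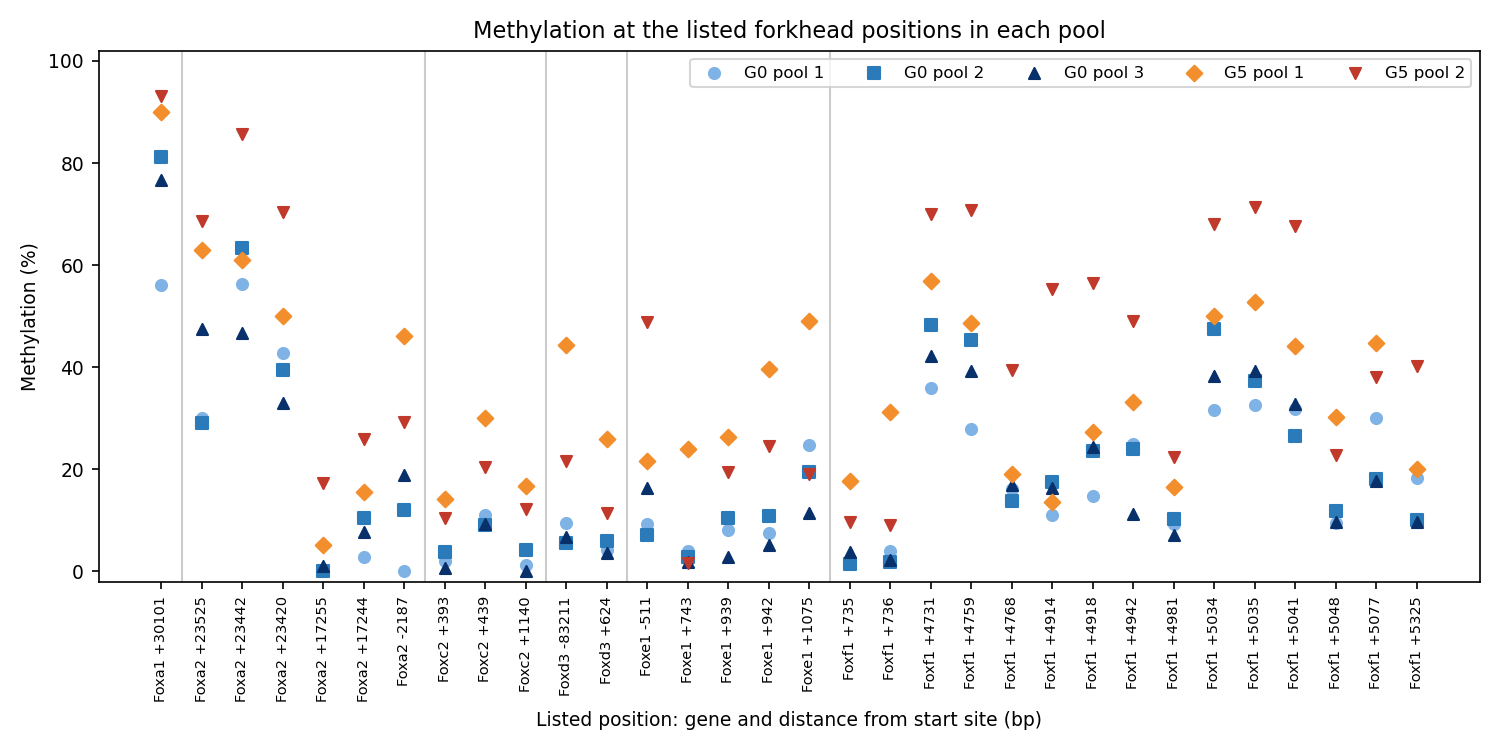
Percent methylation (y axis) at each of the 32 listed forkhead positions (x axis, gene and distance in bp from the authors' start site) in 3 G0 pools (blue) and 2 G5 pools (orange and red), 1 point for each pool. Both G5 points lie above all G0 points at 28 positions, and many positions of Foxc2, Foxd3, Foxe1 and Foxf1 exon 1 start from under 12% in G0.

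Foxf1, a factor of lung, gut and vessel mesenchyme, held 15 of the 32 positions, on chromosome 8 (mm10), and only 3 of 1609 genes in the higher table had more. Averaged over the 15 positions, methylation was 19.97%, 22.5% and 20.7% in the G0 pools and 33.7% and 46.0% in the G5 pools. The groups did not overlap, which the listing in these same pools favours for any gene mean given here. The 2 G5 pools lay 12.3 points apart while the 3 G0 pools spanned 2.51 points. The means were 21.0% ± 1.29 (SD, n = 3) and 39.9% ± 8.69 (SD, n = 2), a difference of 18.8 points. Limma called 5 of the 15 positions, where 33.2% of all listed higher positions were called.

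Most of these positions were not in Foxf1 itself. The gene runs from 121084386 to 121088154 on the plus strand, and 13 of the 15 positions lay downstream of its end, between 121089116 and 121089710, which is 962 to 1556 bp past the last exon and 4731 to 5325 bp from the authors' start site. The nearest other gene there is Mthfsd, 1918 to 2512 bp away, and the long gene model Gm20388 runs across the whole locus with an intron at these sites. By the authors' flags, a CpG island shore held 6 of the 13 positions and a CpG island 7. The densest 299 bases, chr8:121089139-121089437 on the plus strand, hold 20 CpGs, of which 9 were listed and are in capitals. They are shown because they carry most of the Foxf1 result.
Foxf1 downstream stretch: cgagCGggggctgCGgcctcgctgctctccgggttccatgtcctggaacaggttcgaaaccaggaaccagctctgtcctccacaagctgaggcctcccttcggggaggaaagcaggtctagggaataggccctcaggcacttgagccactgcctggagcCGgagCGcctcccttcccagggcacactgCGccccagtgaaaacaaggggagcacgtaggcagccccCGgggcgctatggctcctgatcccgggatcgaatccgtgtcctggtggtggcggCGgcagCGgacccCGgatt

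In the 6 shore positions the mean was 21.8%, 28.7% and 25.0% in the G0 pools and 33.1% and 56.9% in the G5 pools. In the 7 island positions it was 23.3%, 23.1% and 22.0% in G0 against 36.9% and 47.2% in G5. Both parts were higher in both G5 pools, and the G5 pools were 23.8 points apart in the shore and 10.3 points apart in the island. Limma called 1 of 6 shore positions and 4 of 7 island positions, where 33.2% of all listed higher positions were called. With so few positions on shared fragments, no contrast of shore and island is read from these counts. The largest difference in Foxf1 was at 121089420 in the island, where the G0 pools stood at 32.6%, 37.3% and 39.3% and the G5 pools at 52.7% and 71.3%. This difference of 25.6 ± 6.45 points (SE) passed limma (adjusted p = 0.0454). The smallest was at 121089366, with 9.27%, 10.3% and 7.05% in G0 against 16.5% and 22.5% in G5. It was 10.6 ± 4.27 points (SE) and did not pass limma (adjusted p = 0.0714). The only Foxf1 position where the groups overlapped was 121089299 in the shore, with 11.1%, 17.5% and 16.4% in G0 against 13.6% and 55.3% in G5, so G5 pool 2 alone was above G0 there.

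**Figure D2:**
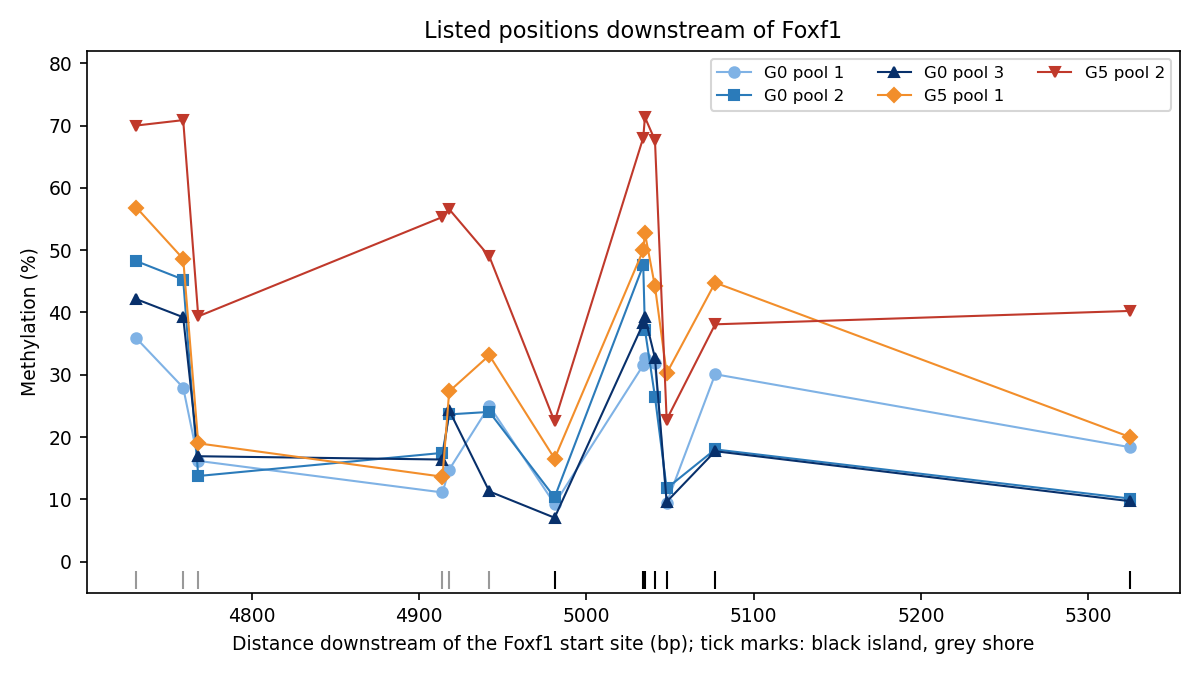
Percent methylation (y axis) at the 13 listed positions downstream of Foxf1 against their distance from the start site in bp (x axis), 1 line for each of the 5 pools, with black ticks for island and grey ticks for shore positions. G5 pool 2 is the highest pool at 11 of the 13 positions, and G5 pool 1 lies closer to the G0 pools at most of them. Levels fall in all 5 pools between 5041 and 5048 bp, while between 4918 and 4942 bp G0 pool 1 rises and G0 pool 3 falls.

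The other 2 Foxf1 positions were the cytosines of both strands of a single CpG in the coding part of exon 1, at 121085120 and 121085121, 735 and 736 bp from the start site, flagged by the authors as promoter and CpG island. On the plus strand the G0 pools stood at 1.49%, 1.45% and 3.70% and the G5 pools at 17.8% and 9.62%. On the minus strand they stood at 4.0%, 1.75% and 2.33% in G0, against 31.2% and 9.09% in G5. Both strands were nearly unmethylated in G0 and higher in both G5 pools, and they differed from each other by at most 13.5 points in any pool, in G5 pool 1. Neither passed limma (adjusted p = 0.0688 and 0.0709). The CpG lies in chr8:121085090-121085151, shown on the plus strand with the listed CpG in capitals. It is shown because it is the only listed CpG inside Foxf1, and it is 1 of 9 CpGs in these 62 bases.
Foxf1 exon 1: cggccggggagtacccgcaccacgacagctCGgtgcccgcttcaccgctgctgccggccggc

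Foxc2, which acts in mesenchyme and in the valves of lymphatic vessels, lies downstream of Foxf1 on the same chromosome, 31785 bp from start to start (121116171 to 121118895, plus strand). Its 3 positions were all exonic and in a CpG island, at 393, 439 and 1140 bp from the start site, and 2 of them carried the authors' promoter flag. Averaged over them, methylation was 4.77%, 5.74% and 3.30% in G0 against 20.3% and 14.4% in G5. The groups were apart at each of the 3 positions, as they were at 86.9% of all listed higher positions. The means of 4.60% ± 1.23 (SD, n = 3) and 17.3% ± 4.18 (SD, n = 2) differed by 12.7 points, the smallest difference of gene means among the 6 genes.

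At the first Foxc2 position, 121116563 in the 5′ untranslated part of the exon, the G0 pools stood at 2.07%, 3.88% and 0.581% and the G5 pools at 14.2% and 10.5%. This position did not pass limma (adjusted p = 0.0716). At 121116609, just before the start codon, they stood at 11.02%, 9.09% and 9.32% in G0, against 30% and 20.4% in G5, a difference of 15.4 ± 4.66 points (SE) that passed limma (adjusted p = 0.0497). At 121117310, in the coding part, they stood at 1.22%, 4.26% and 0% in G0, against 16.7% and 12.2% in G5, with an adjusted p of 0.0556 in limma. The coding CpG, in capitals, lies in chr8:121117280-121117341 on the plus strand and is shown because no untranslated sequence is printed here.
Foxc2 coding exon: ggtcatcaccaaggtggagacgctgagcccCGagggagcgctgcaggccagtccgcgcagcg

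Foxe1, a factor of thyroid development, had 5 positions on chromosome 4 between 46343684 and 46345268, all in a CpG island and on 4 restriction fragments. Averaged over them, methylation was 10.7%, 10.1% and 7.48% in G0 against 32.1% and 22.7% in G5, so all G0 pools were below both G5 pools. The means were 9.45% ± 1.73 (SD, n = 3) and 27.4% ± 6.67 (SD, n = 2), a difference of 18.0 points. The annotation used here (RefSeq, GRCm38.p6) begins the single exon of Foxe1 at 46343644, which is 549 bp before the authors' start site. The first position, at -511 bp by the authors' table, is thus 40 bp inside the exon and in its untranslated part. The other 4 positions are in the coding part. All 5 also lie in an intron of the antisense transcript Gm12446.

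At the position at -511 bp from the authors' start site the G0 pools stood at 9.26%, 7.14% and 16.3% and the G5 pools at 21.6% and 48.9%, the largest Foxe1 difference at 24.3 ± 8.47 points (SE). It did not pass limma (adjusted p = 0.0594). The positions at 939 and 942 bp, 3 bp apart, passed limma (adjusted p = 0.0497 and 0.0444). At 942 bp the levels were 7.58%, 10.8% and 5.17% in G0 against 39.6% and 24.6% in G5. The groups overlapped at the remaining positions, where G5 pool 1 alone was high. At 743 bp the levels were 3.95%, 2.88% and 1.79% in G0 against 24.0% and 1.56% in G5, and at 1075 bp they were 24.8%, 19.4% and 11.4% in G0 against 49.0% and 19.0% in G5. The difference at 743 bp, 9.91 ± 7.03 points (SE), was the smallest of all 32 positions and had an adjusted p of 0.214 in limma. The coding stretch chr4:46344924-46345148, on the plus strand with its 3 listed CpGs in capitals, holds 41 CpGs and is shown for how few of them were listed. The tables do not tell whether the others were measured.
Foxe1 coding exon: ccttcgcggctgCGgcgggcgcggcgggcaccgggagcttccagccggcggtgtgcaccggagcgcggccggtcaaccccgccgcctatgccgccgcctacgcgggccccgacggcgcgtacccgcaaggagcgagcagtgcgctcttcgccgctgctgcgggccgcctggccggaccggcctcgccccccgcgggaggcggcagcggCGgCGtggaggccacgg

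Foxd3, which maintains pluripotent cells and neural crest, had 2 positions on chromosome 4. At 99656922, in the coding exon 624 bp from the start site and flagged as promoter and CpG island, the G0 pools stood at 4.09%, 5.98% and 3.57% and the G5 pools at 26.0% and 11.5%. Both G5 pools were above G0, but the difference of 14.2 ± 5.46 points (SE) did not pass limma (adjusted p = 0.0677). The other position, 99573089, was at -83211 bp from the start site, outside islands and shores and 78 bp from the end of the non-coding gene Gm12690. It stood at 9.43%, 5.56% and 6.67% in G0, against 44.4% and 21.7% in G5, and its difference of 25.8 ± 7.16 points (SE) passed limma (adjusted p = 0.0467). At both positions G5 pool 1 was about as far above G5 pool 2 as the groups were apart, with 14.6 and 22.8 points between the G5 pools. The gene mean of 5.88% ± 0.828 (SD, n = 3) in G0 and of 25.9% ± 13.2 (SD, n = 2) in G5 gave a difference of 20.01 points, which was 10.7 points without G5 pool 1. The coding CpG, in capitals, lies in chr4:99656891-99656952 on the plus strand and is shown beside those of Foxf1 and Foxc2 as another exonic island CpG with little methylation in G0.
Foxd3 coding exon: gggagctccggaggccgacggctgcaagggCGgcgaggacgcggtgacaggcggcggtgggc

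Foxa2, a pioneer factor of endoderm, liver and the floor plate, had 6 positions on chromosome 2, none of them in the gene, which runs from 148042877 to 148046969 on the minus strand. Averaged over the 6, methylation was 22.0%, 25.7% and 25.8% in G0 against 40.1% and 49.5% in G5. All 3 G0 pools were below both G5 pools. The means of 24.5% ± 2.21 (SD, n = 3) and 44.8% ± 6.65 (SD, n = 2) differed by 20.3 points. Limma called 2 of the 6 positions, where 33.2% of all listed higher positions were called.

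Of the Foxa2 positions, 5 lay 13150 to 19431 bp past the end of the gene, outside islands and shores, within the non-coding gene 9030622O22Rik. The outer 3 of these are intronic in that gene and fall on a single restriction fragment. Their mean was 43.0%, 44.0% and 42.4% in G0 against 58.0% and 74.9% in G5. The largest Foxa2 difference was among them, at 148023446, with 30%, 29.0% and 47.5% in G0 against 63.0% and 68.6% in G5. It was 30.3 ± 6.80 points (SE), the largest of all 32 positions, and passed limma (adjusted p = 0.0442). At 148023529 the groups overlapped, with 56.2%, 63.4% and 46.7% in G0 against 60.9% and 85.7% in G5. The other 2 of the 5 were exonic in 9030622O22Rik, at 148029716 and 148029727, and had little methylation in G0. The smallest Foxa2 difference was at 148029716, with 0%, 0% and 1.08% in G0 against 5.17% and 17.3% in G5. This difference of 10.9 ± 5.01 points (SE) did not pass limma (adjusted p = 0.0909).

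The sixth Foxa2 position, 148049156, was the only one upstream, 2187 bp from the start site in a CpG island shore. It stood at 0%, 12.1% and 19.0% in G0, against 46.2% and 29.3% in G5, and its difference of 27.4 ± 7.69 points (SE) passed limma (adjusted p = 0.0468). It was also the only Foxa2 position where G5 pool 1 was above G5 pool 2. The stretch around the outer 3 positions, chr2:148023434-148023563 on the plus strand, is shown with the listed CpGs in capitals because it holds the largest forkhead difference, and it has 6 CpGs.
Foxa2 distal stretch: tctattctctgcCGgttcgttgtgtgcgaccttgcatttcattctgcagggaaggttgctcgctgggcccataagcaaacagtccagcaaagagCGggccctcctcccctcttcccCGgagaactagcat

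Foxa1, the related pioneer factor of endoderm and hormone-responsive epithelia, had a single position, 57516022 on chromosome 12, which was 30101 bp from the start site by the authors' table and 24606 bp past the end of the gene, outside islands and shores. It stood at 56.1%, 81.1% and 76.7% in G0, against 90% and 93.2% in G5. No G0 pool reached the G5 pools, and this was the only one of the 32 positions with a G0 mean over 60%. The means of 71.3% ± 13.4 (SD, n = 3) and 91.6% ± 2.28 (SD, n = 2) differed by 20.3 points, which did not pass limma (adjusted p = 0.0696) and was 12.7 points without G0 pool 1. The CpG, in capitals, lies in chr12:57515991-57516052 on the plus strand and is shown as the only listed CpG of Foxa1.
Foxa1 distal: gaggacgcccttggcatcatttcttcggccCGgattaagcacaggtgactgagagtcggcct

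**Figure D3:**
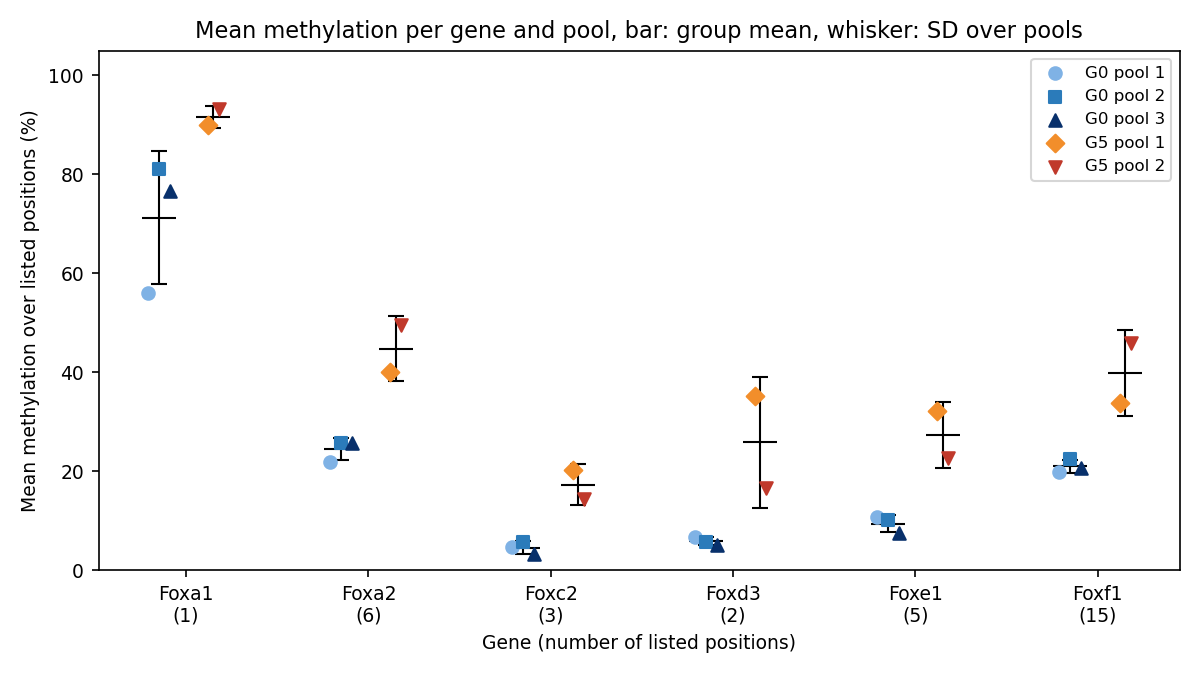
Mean percent methylation over the listed positions of each gene (y axis) for the 6 forkhead genes (x axis, number of positions in brackets), with 1 point for each of 3 G0 pools (blue) and 2 G5 pools (orange and red), a bar at the group mean and whiskers of 1 SD over pools. The groups are apart for every gene, which the listing of all positions as higher in these same pools favours. G5 pool 1 is above G5 pool 2 for Foxc2, Foxd3 and Foxe1 and below it for Foxa1, Foxa2 and Foxf1.

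The order of the gene means in G0 ran from Foxc2 (4.60%), Foxd3 (5.88%) and Foxe1 (9.45%) through Foxf1 (21.0%) and Foxa2 (24.5%) to Foxa1 (71.3%). The ranges of the G0 pools overlapped between Foxc2 and Foxd3 and between Foxf1 and Foxa2, although within each of the 3 pools Foxd3 was above Foxc2 and Foxa2 above Foxf1. The means are over listed positions alone and are not levels of whole genes. The differences between groups ran from 12.7 points in Foxc2 to 20.3 points in Foxa1 and Foxa2, and from 9.77 points in Foxc2 to 29.3 points in Foxd3 with 1 pool left out. Every position had been listed for an authors' difference over 10 points, which sets a floor under these values. The listing also favours gene means that do not overlap between the groups. No share over all genes is given here, so the lack of overlap is not read as a result.

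The forkhead positions lay more in islands and at lower starting levels than the listed higher positions as a whole. Of the 32 positions 18 were in a CpG island (56.2%, against 43.0% of the 2618 higher positions), 7 in a shore (21.9% against 11.99%) and 7 in neither. By the authors' flags, promoters held 9 (28.1% against 28.2%), exons 10 (31.2% against 37.4%) and introns 0 (against 30.7%). Of the 9 promoter flags, 6 were at 624 to 942 bp from the listed start site, past the 500 bp that the study's text gives for a promoter, and the reason was not tested. The median G0 level of a position was 11.8% against 38.8%, and 20 of 32 positions (62.5%) had a G0 mean under 20%, against 34.6%. Within islands the median G0 level was 9.35% at forkhead positions and 15.7% at all higher positions. The median difference was 18.7 points against 16.3 points. Low starting levels and a high shore share were also seen at the 19 higher positions of further forkhead genes. Of those, 42.1% were in an island and 31.6% in a shore, the median G0 level was 17.6%, and 57.9% had a G0 mean under 20%. Of the 7 shore positions, 6 lie downstream of Foxf1 on 3 fragments, and Foxo6 alone held 3 of the 6 shore positions of further forkhead genes. All shares and levels here are descriptions without a test, because the 32 positions share 20 restriction fragments (CCGG to CCGG), 7 of them at Foxf1.

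**Figure D4:**
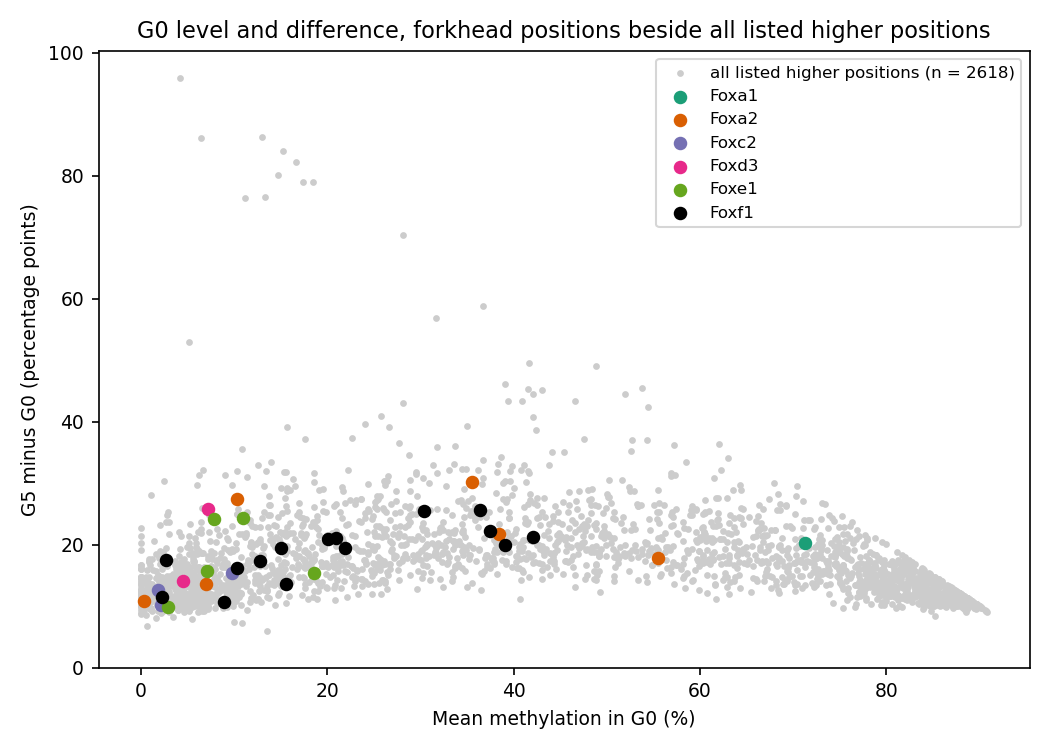
Difference of group means in percentage points (y axis) against mean methylation in G0 in percent (x axis) for all 2618 listed higher positions (grey) and the 32 forkhead positions (coloured by gene). The forkhead positions sit inside the range of the grey points, 20 of the 32 at a G0 mean under 20%.

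The 2 G5 pools lay further apart at the 32 forkhead positions than at the listed higher positions in general. The median absolute difference between the G5 pools was 16.4 points, against 7.82 points over all higher positions, while the median range of the 3 G0 pools was 7.14 points against 8.33. Within islands alone the G5 pool difference was 14.8 points against 10.2 points. It was 7.35 points at the 19 higher positions of further forkhead genes. Nor was the spread wide at every gene here, and Foxf1 gave 15 of the 32 positions. The G5 pools were 3.22 points apart at Foxa1 and 3.65, 9.65 and 4.42 points apart at the Foxc2 positions. The comparison was not matched on level, as the median G5 level was 33.5% at forkhead positions and 61.6% at all higher positions. At 12 of 32 positions (37.5%) the G5 pools were further apart than the group means, against 22.5% of all higher positions. G5 pool 1 was above G5 pool 2 at all 10 positions with the authors' exon flag, which lie in Foxc2, Foxd3, Foxe1 and Foxf1 on 8 fragments. G5 pool 2 was the higher at 18 of the 22 positions without that flag, and by the mean of each fragment at 9 of their 12 fragments. Of those 18 positions, 11 lie in the stretch downstream of Foxf1 and 5 on 2 fragments of Foxa2. By the RefSeq exons in place of the flag, pool 1 was higher at 10 of 11 exonic positions, the exception being the Foxe1 position at -511 bp. Over all higher positions G5 pool 1 was above at 50.8% of exonic and 46.1% of other positions. Within Foxf1 the direction turned between exon 1, at 24.5% and 9.35% in G5 pools 1 and 2, and the downstream positions, at 35.2% and 51.7%. The pattern was noticed in these data and has no test. With the depth of single values unknown, the part of sampling in it was not tested.

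**Figure D5:**
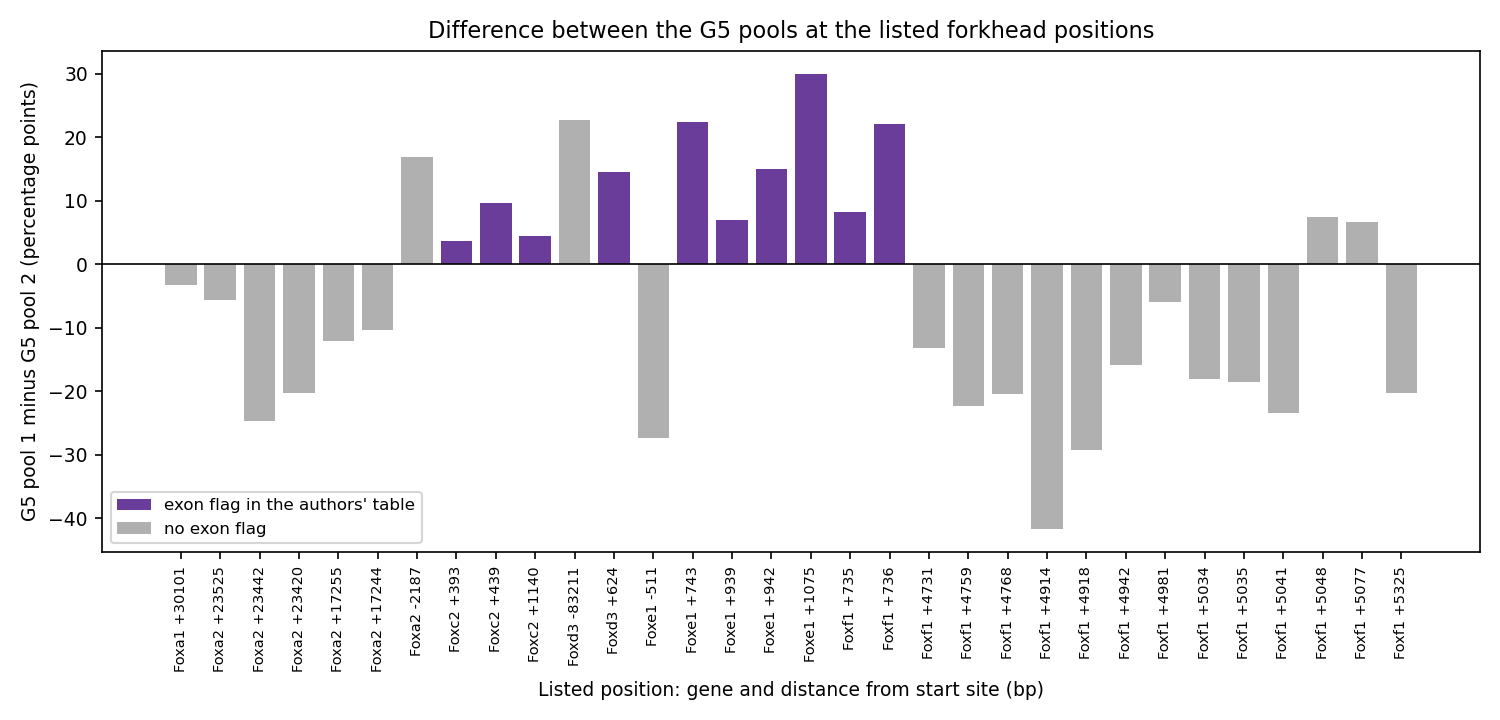
G5 pool 1 minus G5 pool 2 in percentage points (y axis) at the 32 listed forkhead positions (x axis, gene and distance from the start site in bp), with purple bars for positions that carry the authors' exon flag and grey bars for the others. All 10 purple bars are above 0, and 18 of the 22 grey bars are below 0. The grey bar of Foxe1 at -511 bp lies inside the exon by RefSeq, so that 10 of 11 exonic positions are above 0 by that annotation.

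Other forkhead genes were listed in both directions. Of 38 further family members 13 had a listed position, 4 with higher positions only (Foxj1, Foxn3, Foxn4 and Foxo6), 3 with lower positions only (Foxd2, Foxd4 and Foxi2) and 6 with both, among them Foxa3, Foxb1, Foxk2, Foxl1 and Foxo4. They held 19 higher and 10 lower positions. Limma called 7 of the 19 and 6 of the 10, where 33.2% of all higher and 33.0% of all lower positions were called. The groups did not overlap at 17 of the 19 and 9 of the 10, where 86.9% and 83.9% did not overlap. Foxl1, a mesenchymal factor of the gut next to Foxc2, and Foxo6, a factor of the brain, had the most, with 4 higher positions each, and Foxl1 also had 1 lower position. Foxj1, which drives motile cilia, had 1 higher island position, Foxn4 2 higher and Foxn3 1 higher, while Foxi2 had 2 lower and Foxd2 and Foxd4 1 lower each. Foxa3, Foxb1, Foxk2 and Foxo4 had 1 position in each direction.

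Hedgehog signalling acts upstream of several forkhead genes in the embryo. Of 19 genes of that pathway 4 were listed, Ihh, Gas1, Gli2 and Kif7, with 9 higher and 6 lower positions, of which limma called 4 and 1, against 33.2% of all higher and 33.0% of all lower positions. Gli2, a transcription factor of the pathway, had 5 lower positions at 68.8% ± 2.45 (SD, n = 3) in G0, against 50.2% ± 3.79 (SD, n = 2) in G5, with 1 called. The coreceptor gene Gas1 had 4 higher positions at 64.5% ± 7.65 (SD, n = 3) and 90.4% ± 2.34 (SD, n = 2), with 3 called, at least 45574 bp from its start site. The ciliary kinesin gene Kif7 had 3 higher positions, with 0 called by limma, and 1 lower position.

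Among 73 other genes with at least 5 higher positions, those whose 5 pool means were closest to Foxf1 were Olfr1394, Nsd1 and Pitx1, at root mean square differences of 1.73, 2.81 and 4.20 points. Olfr1394, an olfactory receptor gene, stood at 18.1%, 21.3% and 17.5% in G0, against 33.7% and 45.6% in G5 over 10 positions. In G5 pools 1 and 2, Nsd1 stood at 36.3% and 46.3% and Pitx1 at 38.8% and 49.4%. A gap between the G5 pools was thus not particular to Foxf1, though these genes were picked by the same pool means. The likeness is over 5 pools and rests on levels alone.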

How the data were processed

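Per the submitters' processing notes, the tools were Bismark 0.7.11, Bowtie and methylKit and the build was mm10. The deposited files are a table of CpG positions higher in G5 and a table of those lower. These give the percent methylation of each pool, a p-value and a q-value of the authors' test, and their methylation difference, a signed score in percentage points, per the file headers. All listed positions have a q-value below 0.01 and an authors' difference of more than 10 points, so unlisted CpGs are not known, and coverage is not given. Per the design text in the labels, the comparison used Fisher's exact test, islands and exons came from UCSC, and a promoter was the 1 kb before a RefSeq start site and the 500 bp after it.

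Each listed base was looked up in GRCm38.p6, the assembly of mm10. All 4688 fell on a CpG cytosine once 1 was added to the deposited coordinate, 2356 on the plus and 2332 on the minus strand, so coordinates here are counted from 1, and distances are the authors'. All 4688 lay within 100 bp of a CCGG, the site of the enzyme usual for this assay, which the labels do not name. Restriction fragments were cut in silico at CCGG. Sequences and gene models came from RefSeq and GENCODE M21 for GRCm38.

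The groups were compared with limma 3.58.1 (R 4.3.3) on the percent values of all listed positions. A run on simulated data gave both groups the G0 spread and shifted few positions. It checks the code and cannot tell how the fit behaves on positions preselected for a difference. A model of read counts could not be fitted without coverage. Group means and SDs are over pools, after averaging the positions of a gene within each pool. Other steps used Python 3.11.15, pandas 2.3.3, numpy 2.4.6, pysam 0.24.0 and matplotlib 3.10.9. All 6 genes are named, with the largest and smallest difference of each, all positions of genes with up to 3, the 3 hedgehog genes with the most positions, and the 3 genes most like the one with the most positions. Further positions are given to show an overlap of the groups, a call or a location, chosen after their values were seen. Stretches of up to 300 bases were shown for Foxa2, Foxe1 and Foxf1, and 30 bases either side of a single CpG for Foxa1, Foxc2, Foxd3 and Foxf1 exon 1. Values of 1 further family member are not reported here. The members and gene lists were chosen with earlier results of these data known. The p-values of limma measure the spread between pools, which the labels describe only as pools of mice. This does not extend to the authors' q-values, which come from their own test, Fisher's exact test per the design text.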

Additional observations from a re-analysis of the deposited data

How the results depend on the processing

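The difference of gene means was positive for all 6 genes under all 63 alternatives run. Every position had been listed as higher in G5 in these same pools, so the listing largely set this sign. Leaving out each pool in turn gave 12.7 to 25.2 points for Foxa1, 15.6 to 25.0 for Foxa2, 9.77 to 15.7 for Foxc2, 10.7 to 29.3 for Foxd3, 13.2 to 22.7 for Foxe1 and 12.7 to 25.0 for Foxf1. By the median over positions Foxa2 differed by 27.5 points, and at an authors' q-value under 0.001 Foxe1 differed by 24.2 points, from 1 position. Positions where the groups did not overlap numbered 28 to 30 with a pool left out and 17 of 17 at that q-value. Leaving out a pool can only keep or raise this count, and the q-value came from these same pools, so neither is a check. With all pools the groups did not overlap at 86.9% of all higher positions. Limma calls moved. Leaving out a pool gave 0 to 15 called forkhead positions and 0 to 1552 called positions over both tables, against 11 and 1551 with all pools, and 10 to 22 and 1966 to 2628 had an unadjusted p under 0.05. With a mean-variance trend 17 forkhead positions were called. With the replicate number as a block, which uses pools 1 and 2 of each group, limma called 0 forkhead positions and 0 positions in all, with 13 and 1526 at an unadjusted p under 0.05, and fewer samples enter that fit. The cause of these shifts, with the block or without it, was not tested. Equal numbers are not known to mark a shared source, since the labels state no pairing of pools. Deviations of equally numbered pools correlated at 0.0124 and 0.0476. These values cannot settle it, because 2 G5 pools deviate from their mean by equal amounts in opposite directions. A coverage minimum of 20 reads was not run, because coverage is not given. Foxa1 and Foxa2 have no island position, and Foxa1 none at the stricter q-value.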

Other observations

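The chromosome 8 locus of Foxf1 and Foxc2 had further listed positions nearby, looked at after the forkhead values were seen. Within 50 kb of Foxf1, every listed position was in the higher table, 15 of Foxf1, 3 of Foxc2, 3 of Foxl1 and 1 of the non-coding gene Fendrr, which lies on the other side of the Foxf1 start site. Those of Foxf1 and Foxc2 were known to be higher beforehand, so only the Foxl1 and Fendrr positions add to them. Over all listed positions 55.8% were higher, and the shared direction is not read as a result. The 3 Foxl1 positions, between 121124903 and 121128772, had a mean of 7.08%, 8.53% and 5.86% in the G0 pools and of 29.6% and 24.3% in the G5 pools. The groups were apart at all 3 (86.9% of all higher positions), and limma called 2 of them (33.2% of all higher positions were called). The Fendrr position, 121074927, had 10.6%, 2.99% and 16.9% in G0, against 30.7% and 21.6% in G5 and was not called. As at the exonic positions of Foxf1 and Foxc2, G5 pool 1 was above G5 pool 2 at the Fendrr position and in the mean of these 3 Foxl1 positions. Over all 4 higher positions of Foxl1, however, each G5 pool was the higher at 2. Their means there were 29.0% in pool 1 and 30.4% in pool 2. The lower position assigned to Foxl1 was 130511 bp from its start site.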
